A study of Homo sapiens with 18 samples.

Results

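PEO1 cells, a human ovarian cancer line whose p53 the series title calls mutant, were compared after p53 knockdown and after a control siRNA, both with 8 h of 10 nM estradiol (E2). The comparison took the 3 libraries of sip53-transfected cells at 8 h and the 3 libraries of siControl-transfected cells at 8 h, 6 of the 18 libraries of the series, and covered all 15318 genes with enough counts to be tested. The other 12 libraries were siControl and sip53 cells without E2 (0 h, untreated) and with 2 h of E2, 3 of each. All cells had been kept for 48 h in phenol red-free medium with 10% charcoal-stripped serum, which lacks most steroid hormones. The libraries read the 3′ ends of mRNA. The design rests on 1 cell line and 1 siRNA reagent per arm, so an effect of losing p53 and a side effect of its siRNA cannot be told apart. The labels do not say whether the 3 samples of a group were separate cultures, so the p-values reflect sample-to-sample spread that may be technical.

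p53 is a transcription factor that, when wild type and activated by stress, switches on genes of cell-cycle arrest, apoptosis, DNA repair and metabolism. Mutant forms often lose part of that activity and can change transcription through other factors. E2 acts through the estrogen receptor, a ligand-activated transcription factor that drives growth in breast and some ovarian cancers.

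The 6 libraries held 8781324, 9155785 and 9688603 counts in siControl and 11307199, 10674709 and 10401303 in sip53, so every sip53 library was deeper than every siControl library. Within each group the pairs of libraries differed by more than counting noise (chi-square per degree of freedom 6.39 to 10.71), and none was a copy of another. The biological coefficient of variation over all groups was 15.2%. Of 14 markers of ovarian carcinoma and epithelium 13 had counts at 8 h, among them PAX8, EPCAM, MUC16 and WT1. SOX17 was at 0, and 2 of the 13 were near 0. FOLR1 had 2 counts over the 6 libraries, and MECOM stood at 0.481 to 1.15 CPM (counts scaled to a common library total). The summed level of the 14 markers was 4980 to 5580 CPM in siControl and 7020 to 7240 CPM in sip53, a sum carried mostly by KRT7, KRT18 and KRT19. Markers of other cell types were low or absent. Fibroblast markers summed to 119 to 125 CPM in siControl and 124 to 147 in sip53, nearly all of it THY1, and 5 of 9 (COL1A2, COL3A1, DCN, LUM and POSTN) were at 0. Leukocyte markers summed to 12.1 to 16.7 and 14.1 to 16.9 CPM with PTPRC at 0, and endothelial markers to 3.3 to 3.92 and 3.17 to 3.89 CPM. In these bulk libraries fewer cells of a type and less RNA per cell cannot be told apart.

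At 8 h of E2 p53 knockdown lowered more genes than it raised. A gene was called when its Benjamini-Hochberg adjusted p, over all genes tested with edgeR's quasi-likelihood test, was under 0.05. By that rule 431 genes were higher (2.81% of those tested) and 941 lower (6.14%) in sip53, 1372 in all (8.96%). Most calls were of moderate size. Of the 431, 22 had a log2 fold change of 1 or more, and of the 941, 172 had one of -1 or less. The median was 0.48 among the higher genes and -0.64 among the lower ones, beside 0.01 over all genes tested. In 423 of the higher and 903 of the lower genes the 3 libraries of one arm did not overlap those of the other. Over all genes tested 2239 (14.6%) did not overlap in the higher direction and 2283 (14.9%) in the lower. Protein-coding genes made up 410 of the 431 and 857 of the 941, beside 12723 of the 15318 genes tested.

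**Figure D1:**
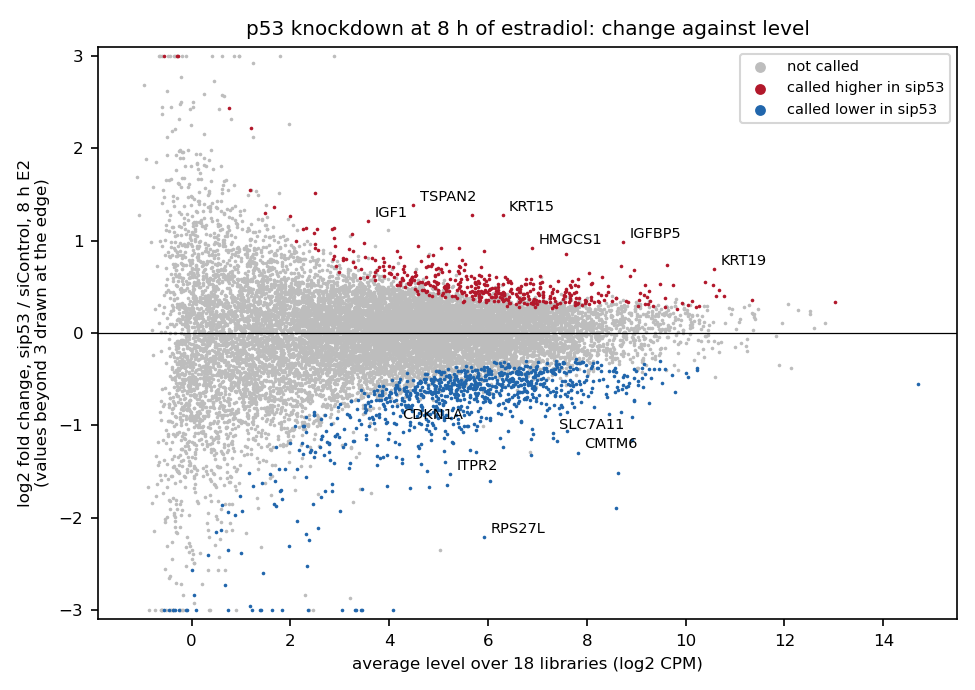
Log2 fold change of sip53 over siControl at 8 h of E2 (vertical axis) against the average level over the 18 libraries (horizontal axis, log2 CPM), 1 point per gene. The 431 genes called higher are red, the 941 called lower are blue and genes not called are grey, and values beyond 3 are drawn at the edge.

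The largest rises by the naming rule were those of TSPAN2, KRT15 and CPA4. TSPAN2, a tetraspanin of the cell membrane, stood at 11, 14.4 and 14.7 CPM in siControl and 27.6, 47.6 and 30 in sip53 (log2 1.39 ± 0.19, adjusted p = 0.000151). KRT15, a keratin of basal epithelia, stood at 62.6, 38.3 and 88.2 CPM in siControl and 151, 127 and 182 in sip53 (log2 1.28 ± 0.25, adjusted p = 0.00309). CPA4, a secreted carboxypeptidase, stood at 30.3, 24.7 and 22.4 CPM in siControl and 56.3, 59.7 and 71.2 in sip53 (log2 1.27 ± 0.14, adjusted p = 1.19e-05). In each of these genes all 3 sip53 libraries lay above all 3 siControl libraries. The naming rule admitted only genes whose arms did not overlap, so for the largest rises and falls this separation was fixed by the choice. KRT15 varied the most within siControl, and its highest siControl library (88.2 CPM) still lay below its lowest sip53 library (126.8 CPM).

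The insulin-like growth factor axis was among the largest rises and among the falls. IGF1, the growth factor itself, stood at 3.94, 6.8 and 7.99 CPM in siControl and 11.6, 17.3 and 14.7 in sip53 (log2 1.21 ± 0.25, adjusted p = 0.00497). IGFBP5, a secreted IGF-binding protein, stood at 274, 266 and 329.5 CPM in siControl and 514, 601 and 607 in sip53 (log2 0.98 ± 0.15, adjusted p = 0.000362). The groups did not overlap for either gene, which the naming rule required. IGF2R, the receptor that clears IGF2, fell (108, 127 and 131 CPM in siControl and 60.7, 76.6 and 51 in sip53, log2 -0.95 ± 0.15, adjusted p = 0.000459). IGFBP3, the main IGF carrier of serum, fell from 498 ± 17.4 CPM in siControl to 334 ± 45.6 CPM in sip53 (SD, n = 3), a call lost without sip53 replicate 1 (adjusted p = 0.0633). Of the 15 measured members of this axis 4 were called higher (IGFBP5, IGF1, IRS2 and IGFBP4) and 4 lower (IGF2R, STC2, IGFBP3 and IGF2BP2), and the median was 0.01. These members made up 26.7% each, beside 2.81% higher and 6.14% lower over all genes tested. Without each library but siControl replicate 3, 2 of them were called higher, and after correction for length and GC content 2 were. Without siControl replicate 2 or sip53 replicate 1, 2 were called lower.

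Further rises with calls kept in all 6 fits that each left out 1 library were those of the carnitine transporter SLC22A5, the cytokine LTB, the lysyl oxidase-like enzyme LOXL4, the chromatin protein HMGA2 and the gap junction connexin GJA5. SLC22A5 rose from 21.4 ± 1.34 CPM in siControl to 41.1 ± 5.62 CPM in sip53 (SD, n = 3) (log2 0.94 ± 0.16, adjusted p = 0.000985). LOXL4, which crosslinks collagen, stood at 44.4, 36.5 and 54.3 CPM in siControl and 88.8, 75.5 and 92.1 in sip53 (log2 0.92 ± 0.16, adjusted p = 0.00114), with no overlap. HMGA2, an architectural protein of fetal and cancer cells, stood at 34.1, 26.1 and 33.5 CPM in siControl and 64.7, 51.4 and 58 in sip53 (log2 0.89 ± 0.12, adjusted p = 0.000143), also without overlap. LTB and GJA5 rose by 0.93 ± 0.15 and 0.85 ± 0.17. The calls of 4 other genes among the 15 largest rises depended on single libraries. DTX4, a Deltex ubiquitin ligase (0.97 ± 0.23), lost its call without siControl replicate 2 (adjusted p = 0.054) or sip53 replicate 1 (0.0663). ADAMTS15, a matrix protease (0.89 ± 0.21), lost it without siControl replicate 2 (0.0706), and the kallikrein protease KLK5 (0.86 ± 0.20) without siControl replicate 2 (0.072) or sip53 replicate 1 (0.056). CDH6, a cadherin of kidney and ovarian cancer (0.89 ± 0.24), kept it in 2 of the 6 fits and lost it without siControl replicate 1 (0.0675) or 2 (0.113) and without sip53 replicate 1 (0.0811) or 3 (0.0643).

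The largest falls were deeper than the largest rises. RPS27L, a ribosomal protein paralog that p53 induces, stood at 123, 102 and 92.9 CPM in siControl and 18.3, 33.2 and 17.2 in sip53 (log2 -2.21 ± 0.25, adjusted p = 1.19e-05). ALG11, a mannosyltransferase of N-glycan assembly, stood at 46.6, 47.4 and 33.9 CPM in siControl and 12.4, 19.6 and 8.26 in sip53 (log2 -1.67 ± 0.26, adjusted p = 0.000485). ITPR2, a calcium channel of the endoplasmic reticulum, stood at 58.4, 47.8 and 40.8 CPM in siControl and 18.7, 20.6 and 11.7 in sip53 (log2 -1.53 ± 0.20, adjusted p = 0.000113). The arms did not overlap in any of the 3, which the naming rule required, and in each the sip53 library nearest to siControl was replicate 2. COL17A1, the collagen of hemidesmosomes, stood at 13.7, 16.5 and 15.1 CPM in siControl and 4.27, 6.8 and 5.32 in sip53 (log2 -1.47 ± 0.24, adjusted p = 0.000713). ALDH1L2, a mitochondrial folate enzyme, stood at 46.3, 45.1 and 40.3 CPM in siControl and 17.4, 18.6 and 13 in sip53 (log2 -1.42 ± 0.20, adjusted p = 0.000143). PCLO, a scaffold protein known from synapses, stood at 58, 47.7 and 48.5 CPM in siControl and 21.9, 25.3 and 11.2 in sip53 (log2 -1.40 ± 0.24, adjusted p = 0.000985). These calls, like those of RPS27L, ALG11 and ITPR2, were kept in all 6 fits without 1 library. HYDIN, a protein of motile cilia, fell by 1.36 ± 0.28 and kept its call in all 6, while FRMD4B, a scaffold of epithelial junctions (-1.35 ± 0.29), lost it without sip53 replicate 3 (adjusted p = 0.0516). WNK4, a kinase that regulates ion transport (-1.69 ± 0.46), lost its call without siControl replicate 1 (0.116) or 3 (0.0519) and without sip53 replicate 2 (0.0778) or 3 (0.147).

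CMTM6, a membrane protein that stabilises the immune checkpoint ligand PD-L1, was singled out after its values were seen because its fall was large and even. It stood at 301, 298 and 345 CPM in siControl and 131, 135 and 119 in sip53 (log2 -1.29 ± 0.09, adjusted p = 1.27e-08), and the fold change was -1.20 at 0 h and -1.24 at 2 h. MALAT1, a nuclear long noncoding RNA that took the most counts of any gene tested, was also named after its values were seen. It stood at 39170, 34110 and 33620 CPM in siControl and 23780, 26030 and 23110 in sip53 (log2 -0.55 ± 0.15, adjusted p = 0.0225), without overlap. Its call was lost without siControl replicate 1 (0.123) or 2 (0.0509), without sip53 replicate 1 (0.0708) or 3 (0.116), and with the length and GC trend of each library removed (0.0935).

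Several large falls are uncertain as measures of 1 gene. NPIPB11, of a multi-copy family on chromosome 16, had 7.42, 10.1 and 19.4 CPM in siControl and 0 counts in all 3 sip53 libraries. MTRNR2L8, a nuclear copy of a mitochondrial gene, fell by 1.89 ± 0.42, the replication-dependent histone H4C3 by 1.51 ± 0.38 and TVP23B, which has a near-identical paralog, by 1.68 ± 0.39. Reads of such genes can be divided among copies in more than 1 way. A second row assigned to LCOR (-1.41 ± 0.30) and the readthrough transcript SYNJ2BP-COX16 (-1.35 ± 0.41) share sequence with other rows. Of these 6, NPIPB11 alone kept its call in every fit without 1 library.

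**Figure D2:**
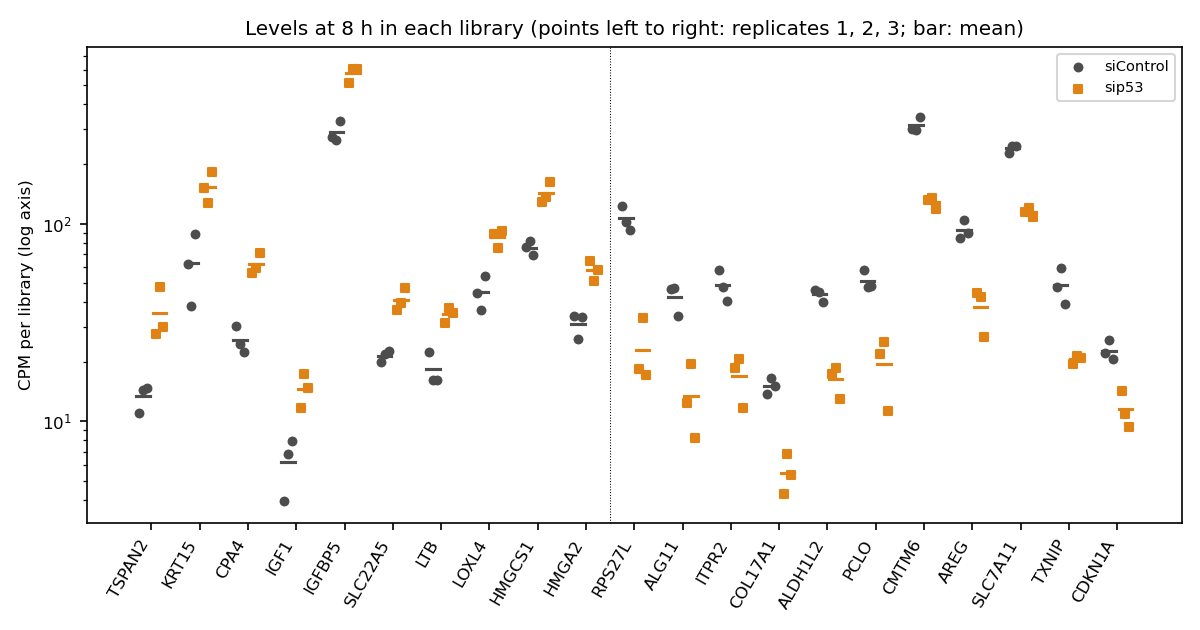
Level of 21 named genes in each 8 h library (log axis, CPM), with siControl as grey circles and sip53 as orange squares, replicates 1, 2 and 3 from left to right and the mean as a bar. The 10 genes left of the dotted line were called higher and the 11 to its right lower, and in each the 3 sip53 libraries lie on one side of the 3 siControl libraries. The naming rule required this of the genes with the largest changes.

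The replicates of an arm were not equally far from the other arm. Among the genes called lower, sip53 replicate 3 was the lowest sip53 library in 67.8% and replicate 2 the highest in 66.7%, against 34.1% and 32.7% over all genes tested. In siControl, replicate 3 was the lowest of its group in 63.6% of the genes called lower and replicate 1 the highest in 56.4%, against 36.2% and 34.2%. The calls therefore rested unevenly on the libraries. Without sip53 replicate 3, 155 genes were called higher and 244 lower, and without siControl replicate 1, 167 and 338. Without siControl replicate 2 they numbered 191 and 512 and without sip53 replicate 1, 209 and 580, while without siControl replicate 3 (334 and 818) and sip53 replicate 2 (412 and 1054) they stayed within 1.5 times. Base composition moved with direction. Median transcript GC content was 55.7% among genes called higher, 43.9% among genes called lower and 49.8% among genes not called, and median transcript length was 882, 1067 and 972 bases. With each library's trend with length and GC content removed, 402 genes were called higher and 733 lower. The part of depth, base composition and the uneven replicates in the single results was not tested further.

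Genes that p53 is known to activate were more often lower than higher. Of 44 measured members of the list 11 were called lower (25%) and 2 higher (4.55%), beside 6.14% and 2.81% of all genes tested, and the median log2 was -0.20. CDKN1A, which encodes the cell-cycle inhibitor p21, stood at 22, 25.7 and 20.6 CPM in siControl and 14.2, 10.9 and 9.4 in sip53 (log2 -0.98 ± 0.17, adjusted p = 0.0012). SESN2, a sestrin that restrains mTORC1 under amino acid shortage, stood at 141, 166 and 153 CPM in siControl and 94.1, 90.5 and 85 in sip53 (log2 -0.77 ± 0.11, adjusted p = 0.000286). GADD45A, a growth arrest gene, stood at 191, 191 and 133 CPM in siControl and 90, 118 and 93.6 in sip53 (log2 -0.77 ± 0.16, adjusted p = 0.0053). In all 3 genes the sip53 libraries lay below the siControl libraries, and in GADD45A siControl replicate 3 was the closest to them. ZMAT3, an RNA-binding growth suppressor, fell by 0.72 ± 0.16. All 4 calls were kept without any 1 library, as was that of RPS27L. Leaving out sip53 replicate 3, or replicate 1 or 2 of siControl, 7 members were called lower in place of 11. ASCC3, a helicase of DNA alkylation repair, fell by 0.57 ± 0.13 and lost its call without siControl replicate 1 (adjusted p = 0.0774).

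The other lower members of that list, BAX, GDF15, XPC, PMAIP1 and BBC3, were named after their values were seen. BAX, which permeabilises mitochondria in apoptosis, stood at 40.6, 34.9 and 31.2 CPM in siControl and 25.1, 21.9 and 26.4 in sip53 (log2 -0.54 ± 0.14, adjusted p = 0.0162). GDF15, a secreted stress cytokine, was at a low level, 5.68, 8.91 and 5.22 CPM in siControl and 1.51, 2.97 and 2.66 in sip53 (log2 -1.47 ± 0.38, adjusted p = 0.0167). The nucleotide excision repair sensor XPC (-0.46 ± 0.11) and the death-promoting BCL2 relatives PMAIP1 (-0.38 ± 0.10) and BBC3 (-0.37 ± 0.11) were also lower. Each of these 5 calls was lost in 2 to 4 of the fits without 1 library, with an adjusted p of up to 0.116 for XPC and BAX, 0.101 for GDF15, 0.151 for PMAIP1 and 0.183 for BBC3. The 2 higher members were DRAM1, an autophagy gene of the lysosome (109.6, 108 and 97.3 CPM in siControl and 144, 151 and 132 in sip53, log2 0.44 ± 0.10, adjusted p = 0.00653), and CCNG1, cyclin G1 (0.72 ± 0.19), whose call was lost without siControl replicate 1 (0.0964) or 3 (0.0647) or sip53 replicate 3 (0.0735). MDM2, the ubiquitin ligase in the p53 feedback loop, stood at 41.9, 45.2 and 49.3 CPM in siControl and 44.7, 50.2 and 54.6 in sip53. The groups overlapped and the log2 fold change was 0.13 ± 0.13, adjusted p = 0.593, with a 95% interval from -0.16 to 0.42. Among the 20 BCL2 family genes 2 were called higher (BID and BAD) and 3 lower (BAX, PMAIP1 and BBC3). That is 10% and 15%, beside 2.81% and 6.14% of all genes tested. Without 1 library 0 to 2 were higher and 0 to 4 lower.

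The receptor for E2 and its target genes were considered next. ESR1, the estrogen receptor alpha gene, stood at 62.7, 59.6 and 64.4 CPM in siControl and 86.8, 87.3 and 78.9 in sip53 (log2 0.44 ± 0.12, adjusted p = 0.0237). All sip53 libraries lay above all siControl libraries, and the call was lost without siControl replicate 1 (adjusted p = 0.0843) or 2 (0.0922) and without sip53 replicate 1 (0.0887) or 2 (0.0583). Of 23 receptors and coregulators 3 were called higher and 3 lower (13% each, beside 2.81% and 6.14% of all genes tested), with a median of -0.04. TFAP2C, an AP-2 factor that works with ESR1, stood at 286, 292 and 298 CPM in siControl and 374, 365 and 423 in sip53 (log2 0.41 ± 0.09, adjusted p = 0.00649), and CITED2, a coactivator, rose from 22.2 ± 0.673 CPM in siControl to 36.8 ± 5.62 CPM in sip53 (SD, n = 3). The call of TFAP2C was lost after correction for length and GC content (adjusted p = 0.0526) and that of CITED2 without sip53 replicate 3 (0.051). The lower members were the nuclear scaffold proteins SAFB2 (-0.54 ± 0.12) and SAFB (-0.66 ± 0.20), known as corepressors of ESR1, and the acetyltransferase CREBBP (-0.39 ± 0.10). Their calls were kept in 4, 2 and 3 of the 6 fits without 1 library, with adjusted p of up to 0.0676, 0.141 and 0.131. No member of this list was called lower without siControl replicate 1 or sip53 replicate 3, and 1 was without siControl replicate 2.

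Genes that estrogen induces went both ways. Of 46 measured, 5 were called higher (IGF1, CISH, SLC7A5, FHL2 and IGFBP4) and 5 lower (AREG, SLC26A2, XBP1, STC2 and UGCG), 10.9% each, and the median was 0.17. The shares over all genes tested were 2.81% higher and 6.14% lower. AREG, a ligand of the EGF receptor, stood at 84.8, 104 and 89.4 CPM in siControl and 44.5, 42.4 and 26.8 in sip53 (log2 -1.29 ± 0.17, adjusted p = 8.84e-05). SLC26A2, a sulfate transporter, stood at 238, 202 and 197 CPM in siControl and 117, 129.7 and 99.7 in sip53 (log2 -0.88 ± 0.12, adjusted p = 0.00011). CISH, a cytokine signalling inhibitor, stood at 10.4, 13.7 and 14.4 CPM in siControl and 22.2, 19.7 and 26.1 in sip53 (log2 0.82 ± 0.18, adjusted p = 0.00678). None of the 3 overlapped between the arms, and CISH lost its call without siControl replicate 1 (0.0522) or sip53 replicate 3 (0.0535). XBP1, a transcription factor of secretory cells (-0.44 ± 0.09), and STC2, a secreted glycoprotein (-0.39 ± 0.08), were lower, and each lost its call in 1 of the 6 fits, XBP1 without sip53 replicate 3 (0.0518) and STC2 without siControl replicate 2 (0.0504). The calls of SLC7A5, FHL2, IGFBP4 and UGCG were kept in 0, 2, 1 and 2 of the 6 fits. Without siControl replicate 1 or sip53 replicate 3, 1 estrogen-induced gene was called higher, and without siControl replicate 2 or sip53 replicate 1, 3 and 2 were. Without siControl replicate 2 or sip53 replicate 3, 3 were called lower. After correction for length and GC content 2 were called higher and 4 lower, and SLC7A5, FHL2, IGFBP4 and UGCG were no longer called (adjusted p = 0.134, 0.0513, 0.257 and 0.071). GREB1, a classical estrogen target, stood at 4.75, 2.23 and 2.05 CPM in siControl and 6.04, 3.45 and 5.99 in sip53, and CCND1, cyclin D1, at 621, 618 and 618 CPM in siControl and 663, 640.0 and 608 in sip53. Both overlapped between the arms, with log2 values of 0.78 ± 0.43, adjusted p = 0.272 for GREB1 and 0.04 ± 0.10, adjusted p = 0.854 for CCND1. MYC was not called either (0.37 ± 0.21). PGR, the progesterone receptor, had 0 counts in all 6 libraries at 8 h and was not tested.

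In the amino acid stress response driven by the transcription factor ATF4, more genes were called lower than higher. ATF4 is translated when amino acids are short or proteins misfold, and it raises genes of amino acid uptake and synthesis and of stress resistance. Of 37 measured members 10 were called lower (27%, beside 6.14% of all genes tested), 1 was called higher (2.7%, beside 2.81%), 26 lay below 0, and the median was -0.24. SLC7A11, the cystine transporter, stood at 228, 247 and 247 CPM in siControl and 114, 120.4 and 107 in sip53 (log2 -1.08 ± 0.09, adjusted p = 1.45e-07). ADM2, a peptide hormone, stood at 29.9, 27.1 and 32.2 CPM in siControl and 12.2, 14.8 and 8.83 in sip53 (log2 -1.32 ± 0.21, adjusted p = 0.000702). PPP1R15A, a phosphatase subunit that restores translation after stress, stood at 72.2, 82.8 and 69.5 CPM in siControl and 51.4, 45.7 and 40.9 in sip53 (log2 -0.70 ± 0.10, adjusted p = 0.000333). The arms did not overlap in any of them and the calls were kept without any 1 library, as were those of ALDH1L2 and SESN2. The stress transcription factors DDIT3 (103, 93.7 and 96 CPM in siControl and 69.6, 67.8 and 64.2 in sip53, log2 -0.54 ± 0.12, adjusted p = 0.00795) and ATF3 (-0.58 ± 0.14), the glutathione-degrading enzyme CHAC1 (-0.61 ± 0.14) and the branched-chain aminotransferase BCAT1 (-0.51 ± 0.13) were lower as well. They were named after their values were seen, and lost their calls in 1 to 3 of the 6 fits, with adjusted p of up to 0.0639, 0.103, 0.0724 and 0.0795. The higher member, the amino acid transporter SLC7A5 (0.32 ± 0.10), kept its call in 0 of the 6 fits. ATF4 itself was not called (0.04 ± 0.10). Without sip53 replicate 3, 6 members were called lower. After correction for length and GC content, 14 members were called lower and 0 higher, with a median of -0.31.

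ATF4 binds a composite CCAAT-enhancer and ATF element. The letters TGATGNAA were searched on both strands of the 250 bases before each gene's start, in promoter sequences from RefSeq (build GRCh38.p14). Among all genes called, they occurred in 1.65% of the promoters of lower genes and 0.912% of those of higher genes. They occurred in 3.19% of 27305 promoters, in 1.4% of the 10904 promoters of tested genes, and in 4 of the 32 list members with a sequence, 3 of them among the 9 called. The 3 are shown because they are the called members of the list whose promoter held the letters, with the match in capitals. A match describes the sequence and does not show that a factor is bound.
CHAC1, chr15:40953221-40953319, plus strand, match on the opposite strand: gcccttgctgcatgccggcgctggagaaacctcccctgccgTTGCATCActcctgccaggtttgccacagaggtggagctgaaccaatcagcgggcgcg
ATF3, chr1:212565166-212565273, plus strand: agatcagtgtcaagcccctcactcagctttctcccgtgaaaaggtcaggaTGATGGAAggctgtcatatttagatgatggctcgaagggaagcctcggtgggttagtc
BCAT1, chr12:24949102-24949199, minus strand: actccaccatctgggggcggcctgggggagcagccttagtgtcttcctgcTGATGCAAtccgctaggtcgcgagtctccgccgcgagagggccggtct

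The neighbouring lists held fewer calls in 1 direction. Beside them, 2.81% of all genes tested were called higher and 6.14% lower. At 8.7% lower calls, the list of serine and one-carbon enzymes was near that share. Of 23 serine and one-carbon enzymes 2 were called lower, ALDH1L2 and MTHFD1L, the mitochondrial formyl-tetrahydrofolate synthetase, which stood at 104, 104 and 108 CPM in siControl and 61.1, 66.5 and 61.8 in sip53 (log2 -0.74 ± 0.10, adjusted p = 0.000101). Of 20 aminoacyl-tRNA synthetases 3 were lower (LARS1, RARS1 and SARS1) and 1 higher (QARS1). Without sip53 replicate 3, 1 synthetase was called lower, without siControl replicate 2, 2 were, and without sip53 replicate 2, 5 were. QARS1 was not called without siControl replicate 1 or 2 or sip53 replicate 1, nor after correction for length and GC content (adjusted p = 0.0647). LARS1, which charges leucine, stood at 208, 204 and 204 CPM in siControl and 142, 147 and 129.8 in sip53 (log2 -0.56 ± 0.10, adjusted p = 0.00147), with the call kept in all 6 fits. Glutathione and NRF2 genes split, with 4 higher and 4 lower of 33 (12.1% each) and a median of 0.17. TXNRD1, a thioredoxin reductase, stood at 115, 124 and 104 CPM in siControl and 55.7, 58.6 and 50.4 in sip53 (log2 -1.06 ± 0.17, adjusted p = 0.000634), with all sip53 libraries below all siControl libraries. NFE2L2, which encodes NRF2, fell by 0.66 ± 0.14 (call lost without sip53 replicate 3, adjusted p = 0.0584). TKT, FTH1 and GSTP1 were among the higher members, with log2 values of 0.41 ± 0.09, 0.34 ± 0.09 and 0.355 ± 0.10, called in 5, 3 and 2 of the 6 fits, and not after correction for length and GC content (adjusted p = 0.0504, 0.0592 and 0.2). Without siControl replicate 1 or 2 or sip53 replicate 1 or 3, 2 members of the list were called higher, and without sip53 replicate 3, 2 were called lower. TXNIP, which binds thioredoxin and limits glucose uptake, stood at 47.8, 59.5 and 39 CPM in siControl and 19.4, 21.5 and 20.9 in sip53 (log2 -1.24 ± 0.17, adjusted p = 0.000105), with all sip53 libraries below all siControl libraries.

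Among cholesterol genes, more were called higher than lower. Of 30 measured genes of synthesis, uptake and control 13 were called higher (43.3%, beside 2.81% of all genes) and 1 lower (3.33%, beside 6.14%), with a median of 0.39. At the start of the mevalonate pathway, HMGCS1, which makes HMG-CoA, stood at 76.1, 81.4 and 69.2 CPM in siControl and 129, 136 and 163 in sip53 (log2 0.92 ± 0.12, adjusted p = 8.58e-05), and ACAT2, the thiolase before it, rose by 0.53 ± 0.12. In the isoprenoid and squalene steps IDI1 (0.69 ± 0.19), FDPS (0.51 ± 0.10) and FDFT1, squalene synthase (57.5, 60 and 59.8 CPM in siControl and 82, 89.7 and 95 in sip53, log2 0.59 ± 0.11, adjusted p = 0.00185), were higher. SQLE, squalene epoxidase, stood at 219.5, 198 and 213 CPM in siControl and 291, 319 and 299 in sip53 (log2 0.53 ± 0.08, adjusted p = 0.000419). HMGCS1, FDFT1 and SQLE showed no overlap between the arms.

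In the sterol steps CYP51A1 (0.53 ± 0.13), TM7SF2 (0.51 ± 0.14), NSDHL (0.39 ± 0.12), EBP (0.38 ± 0.08) and DHCR7, which makes cholesterol in the last step, were higher. DHCR7 stood at 70, 69.7 and 86.6 CPM in siControl and 108, 120.3 and 113 in sip53 (log2 0.59 ± 0.10, adjusted p = 0.00107). SREBF2, the factor that induces these genes, stood at 71.7, 78.9 and 78.4 CPM in siControl and 97.4, 103 and 108 in sip53 (log2 0.43 ± 0.09, adjusted p = 0.00688). Neither DHCR7 nor SREBF2 overlapped between the arms. After correction for length and GC content TM7SF2 (log2 0.32, adjusted p = 0.102) and SREBF2 (log2 0.295, adjusted p = 0.0517) were no longer called. LBR, a sterol reductase of the nuclear envelope, was the lower member (-0.55 ± 0.15). The calls of CYP51A1, IDI1, TM7SF2, NSDHL and LBR were kept in 4, 3, 1, 0 and 2 of the 6 fits without 1 library, and the other 9 in all 6. Of the 13 higher genes 7 (EBP, SREBF2, ACAT2, CYP51A1, IDI1, TM7SF2 and NSDHL) were named after their values were seen. Over those fits 9 to 12 members were called higher, and the median ran from 0.35 to 0.42.

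The sterol element TCACNCCAC, to which SREBP factors bind, was searched in the same way. Its share was 1.22% in the promoters of all genes called higher and 0.412% in those of genes called lower. It occurred in 0.875% of all promoters, in 0.853% of those of tested genes, and in 1 of the 24 list members with a sequence, SREBF2 itself. The sequence is shown for that reason, with the match in capitals.
SREBF2, chr22:41832922-41833030, plus strand: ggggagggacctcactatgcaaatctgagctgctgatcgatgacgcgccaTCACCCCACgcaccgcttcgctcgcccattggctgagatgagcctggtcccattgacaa

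**Figure D3:**
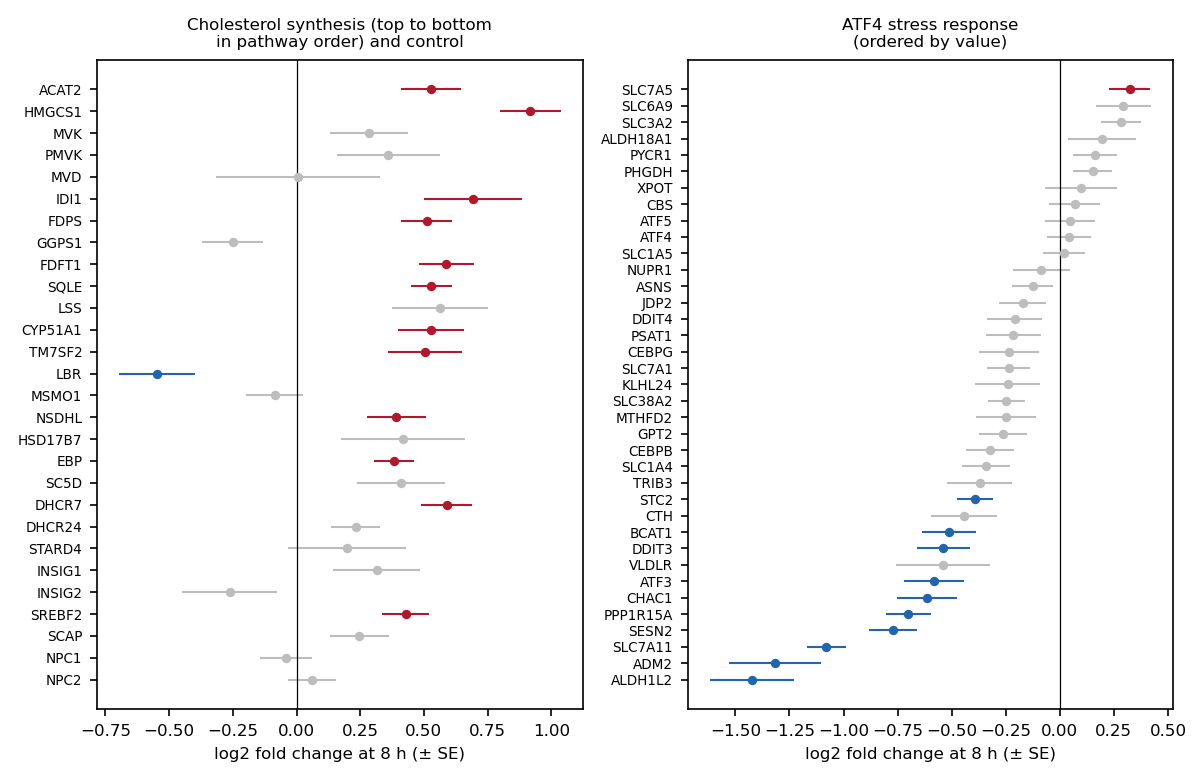
Log2 fold change of sip53 over siControl at 8 h (horizontal axis, bars ± SE) for cholesterol genes, from the first synthesis step at the top to control genes at the bottom (left, not all members of the list are drawn), and for 37 ATF4 stress response genes ordered by value (right). Red points were called higher, blue points lower and grey points not called, and 12 of the cholesterol genes drawn are red while 10 ATF4 genes are blue.

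Fatty acid genes were divided. Of 23 measured, SCD, FASN and LPIN1 were called higher (13%, beside 2.81% of all genes tested) and ACLY lower (4.35%, beside 6.14%). The median was 0.16. SCD, the desaturase that makes oleate, stood at 187, 199.9 and 198 CPM in siControl and 276, 293 and 284 in sip53 (log2 0.55 ± 0.10, adjusted p = 0.0017). FASN, fatty acid synthase, stood at 445, 449 and 455 CPM in siControl and 625, 576 and 653 in sip53 (log2 0.46 ± 0.08, adjusted p = 0.00206). ACLY, which supplies acetyl-CoA to both lipid pathways, stood at 195, 220.4 and 215 CPM in siControl and 118, 117 and 124 in sip53 (log2 -0.81 ± 0.11, adjusted p = 0.00011). The arms did not overlap in any of the 3, and the calls were kept without any 1 library. That of FASN was lost after correction for length and GC content (adjusted p = 0.115).

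Genes of energy metabolism and of the ribosome were mostly above 0 by small amounts. Over all genes tested 7816 of 15318 lay above 0, 2.81% were called higher and 6.14% lower. LDHA, lactate dehydrogenase, stood at 1061, 1026 and 1019 CPM in siControl and 1566, 1462 and 1542 in sip53 (log2 0.56 ± 0.08, adjusted p = 0.000388). NDRG1, a gene induced by hypoxia, stood at 495, 579 and 521 CPM in siControl and 344, 377 and 375 in sip53 (log2 -0.54 ± 0.09, adjusted p = 0.000493). Of 35 glycolysis and hypoxia genes 4 were called higher (LDHA, GPI, PKM and PFKL) and 2 lower (NDRG1 and VEGFA). The calls of GPI, PKM, PFKL and VEGFA were kept in 3, 4, 2 and 0 of the 6 fits. After correction for length and GC content GPI, PKM and PFKL were not called (adjusted p = 0.0687, 0.0687 and 0.113). Of 78 cytosolic ribosomal protein genes 73 lay above 0, 4 were called higher (5.13%) and 0 lower, and the median was 0.22. The 4 were RPL9, RPL36, RPS26 and RPL31, with log2 values of 0.34 to 0.41. Of 55 nuclear-encoded respiratory chain genes 49 lay above 0, 3 were called higher (5.45%, ATP5PO, NDUFA8 and NDUFB5) and 0 lower, with a median of 0.25. With upper-quartile scaling 16 ribosomal and 12 respiratory genes were called higher, and in the fits without 1 library 0 to 3 and 0 to 1. At these sizes single members were near the limit of what 3 libraries per arm resolved.

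The G1 regulators that were called were all lower, and most mitosis genes that were called were lower. Over all genes tested lower calls were also the more frequent, with 941 lower (6.14%) and 431 higher (2.81%). CDK6, a G1 kinase, stood at 218, 213 and 176 CPM in siControl and 92.8, 109 and 68 in sip53 (log2 -1.17 ± 0.18, adjusted p = 0.000398). E2F7, a repressor of the E2F family, stood at 27.7, 23.9 and 18.8 CPM in siControl and 10.8, 14.7 and 10.3 in sip53 (log2 -0.98 ± 0.21, adjusted p = 0.00678). RB1, the retinoblastoma gene, stood at 18, 20.7 and 15.9 CPM in siControl and 9.96, 10.1 and 12.1 in sip53 (log2 -0.77 ± 0.17, adjusted p = 0.00857). No overlap was seen between the arms, and E2F7 lost its call without siControl replicate 1 (0.0509) or sip53 replicate 3 (0.0544) and RB1 without siControl replicate 2 (0.0501). With CDKN1A and the RB relative RBL1 (-0.56 ± 0.12) these made 5 lower (19.2%) and 0 higher of 26 G1 regulators, whose median was 0.16. Of 47 mitosis and kinetochore genes 6 were lower (12.8%) and 1 higher (2.13%), with a median of -0.17. After correction for length and GC content 3 were lower (median -0.10). CENPE, a kinetochore motor, stood at 214, 204 and 174 CPM in siControl and 113, 132 and 99.9 in sip53 (log2 -0.78 ± 0.13, adjusted p = 0.000713), and CDC25B, a phosphatase that starts mitosis, at 250.4, 257 and 259 CPM in siControl and 384, 368 and 413 in sip53 (log2 0.60 ± 0.09, adjusted p = 0.000435). Both calls were kept in all 6 fits, while those of KNL1, CENPF, BUB1B, DLGAP5 and NUF2 were lost without sip53 replicate 3 (adjusted p = 0.104, 0.117, 0.192, 0.185 and 0.195) and also without at least 1 other library. Without siControl replicate 1 or sip53 replicate 3, 1 mitosis gene was called lower, without siControl replicate 2 or sip53 replicate 1, 3 were, and without sip53 replicate 2, 11 were.

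Replication and repair genes held calls that depended on the libraries. Replication genes were near the shares over all genes tested, with 9.09% lower beside 6.14% and 2.27% higher beside 2.81%. Of the repair genes 15.6% were lower. Of 44 replication genes POLD3, RFC3, POLA1 and PRIM1 were lower and POLA2 higher, with a median of 0.02, and over the fits without 1 library 0 to 5 were called lower, with 0 without siControl replicate 1 or sip53 replicate 3. Of 32 genes of homologous recombination and Fanconi repair 5 were lower (FANCB, BRCA2, RAD50, BRIP1 and MRE11) and 0 higher, with a median of -0.22. BRCA2, which acts in the repair of broken DNA, stood at 35.2, 34.6 and 25.3 CPM in siControl and 21.1, 18.4 and 12.4 in sip53 (log2 -0.87 ± 0.21, adjusted p = 0.0131). Its sip53 libraries lay below its siControl libraries, and the call was lost without sip53 replicate 3 (0.108) or either of siControl replicates 1 and 2. Without 1 library 0 to 5 repair genes were called lower, again with 0 without siControl replicate 1 or sip53 replicate 3, and after correction for length and GC content 2 were, with a median of -0.09.

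Keratins led the rises among epithelial genes. KRT19, a simple-epithelium keratin, stood at 1277, 1300 and 1410 CPM in siControl and 2118, 2180 and 2167 in sip53 (log2 0.70 ± 0.09, adjusted p = 8.58e-05). KRT5, a basal keratin, stood at 418, 411 and 413 CPM in siControl and 595, 698 and 697 in sip53 (log2 0.68 ± 0.10, adjusted p = 0.000453). KRT18, a simple-epithelium keratin, stood at 1165, 1247 and 1329 CPM in siControl and 1743, 1701 and 1713 in sip53 (log2 0.46 ± 0.09, adjusted p = 0.00226). The arms did not overlap and the calls were kept without any 1 library. Of 44 keratins and epithelial markers 7 were called higher (15.9%, beside 2.81% of all genes tested) and 4 lower (9.09%, beside 6.14%). The median was 0.13. The higher ones were KRT19, KRT5, KRT18, KRT15, TFAP2C, KRT7 and KRT16. The lower ones were the junction proteins TJP1 (-0.60 ± 0.14) and DSP (-0.41 ± 0.12), the splicing factor ESRP1 (-0.39 ± 0.10) and the transcription factor GRHL2 (-0.53 ± 0.14). Their calls were kept in 3, 2, 3 and 2 of the 6 fits, in that order, and the groups overlapped for DSP. Without siControl replicate 2, sip53 replicate 1 or sip53 replicate 3, 0 members were called lower, and after correction for length and GC content 2 were.

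Adhesion and growth factor genes went both ways. Among all genes tested 2.81% were called higher and 6.14% lower. CAV1, the coat protein of caveolae, stood at 204, 209 and 218 CPM in siControl and 293, 308 and 343 in sip53 (log2 0.58 ± 0.10, adjusted p = 0.000713), and TNS3, a tensin of focal adhesions, at 30.6, 35.1 and 39.3 CPM in siControl and 58.8, 54.5 and 63.5 in sip53 (log2 0.75 ± 0.14, adjusted p = 0.00292). ITGA6, the laminin-binding integrin, stood at 89.6, 89.6 and 87.6 CPM in siControl and 42.7, 55.7 and 46.7 in sip53 (log2 -0.88 ± 0.16, adjusted p = 0.00211). None of the 3 overlapped between the arms. Of 36 integrin and focal adhesion genes 5 were higher (13.9%) and 6 lower (16.7%), with a median of 0.02, and the lower count ran from 1 without sip53 replicate 3 to 8 without sip53 replicate 2, with 2 in the other 4 such fits. Of 37 mesenchymal and matrix genes 2 were higher (5.41%) and 3 lower (8.11%). Without siControl replicate 1 or 2 or sip53 replicate 1 or 3, 0 of these were called higher, and lower calls ran from 1 without siControl replicate 1, sip53 replicate 1 or sip53 replicate 3 to 4 without sip53 replicate 2. After correction for length and GC content 3 integrin and focal adhesion genes were called lower and 1 mesenchymal gene higher. In the EGF family the 3 called members were all ligands and all lower. HBEGF stood at 180.2, 158 and 162 CPM in siControl and 118, 127 and 103 in sip53 (log2 -0.53 ± 0.09, adjusted p = 0.00132). EREG was near the detection limit at 2.55, 3.34 and 2.87 CPM in siControl and 0.444, 0.479 and 0.76 in sip53 (log2 -2.36 ± 0.55, adjusted p = 0.00945), and AREG is given above. Of the 12 measured members of that list 0 were called higher and 25% lower, and its median was -0.22.

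Protein folding genes were counted in 2 lists, between which no difference was tested. Cytosolic heat shock proteins held 4 higher and 0 lower of 25 (16%, beside 2.81% of all genes tested), with a median of 0.07. HSPB1, a small heat shock protein, stood at 379, 326 and 406 CPM in siControl and 594, 549.8 and 562 in sip53 (log2 0.62 ± 0.10, adjusted p = 0.000729), and HSPA8, the constitutive HSP70, at 421, 436 and 460.3 CPM in siControl and 614, 583 and 690.5 in sip53 (log2 0.52 ± 0.12, adjusted p = 0.00944). HSPA1A and HSPA1B, a near-identical pair whose reads may be divided between them, rose by 0.57 ± 0.13 and 0.58 ± 0.17, and kept their calls in 5 and 1 of these fits. Both lost them after correction for length and GC content (adjusted p = 0.0557 and 0.0592). Without sip53 replicate 3, 1 heat shock gene was called higher, and without siControl replicate 1, 2 were. Endoplasmic reticulum chaperones and folding genes held 7 lower and 0 higher of 27 (25.9%, beside 6.14% of all genes tested), with a median of -0.08. PDIA3, a disulfide isomerase of glycoproteins, stood at 336, 282 and 286 CPM in siControl and 168, 218 and 132 in sip53 (log2 -0.80 ± 0.15, adjusted p = 0.00233), and ATF6, a sensor of unfolded protein, at 111, 112 and 114 CPM in siControl and 76.3, 82.8 and 63.9 in sip53 (log2 -0.60 ± 0.11, adjusted p = 0.00149). Neither gene overlapped between the arms and both calls were kept in all 6 fits. HSP90B1, the reticulum HSP90, stood at 952, 827 and 826 CPM in siControl and 554, 694 and 427 in sip53 (log2 -0.64 ± 0.15, adjusted p = 0.0108), with the call lost without siControl replicate 1 (0.0751) or sip53 replicate 3 (0.1). In these 3 genes sip53 replicate 3 was the lowest library. Without that library 2 members were called lower, and without siControl replicate 1 or 2, 3 and 4. The call of HSPA8 was lost without siControl replicate 1 (0.0509) or sip53 replicate 3 (0.0577).

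In the remaining lists few genes were called, beside 2.81% higher and 6.14% lower over all genes tested. Of 26 immediate-early and AP-1 genes 0 were higher and 4 lower, 15.4% beside 6.14% of all genes tested. Among the 4 was JUN, which stood at 131, 124 and 107 CPM in siControl and 88.3, 86.2 and 74 in sip53 (log2 -0.54 ± 0.11, adjusted p = 0.00325). Without siControl replicate 1 or sip53 replicate 3, 1 member was called lower, and without siControl replicate 2 or sip53 replicate 1, 2 were. Of 41 interferon response genes 2 were higher (HLA-C and B2M) and 4 lower (IFIT2, DDX60, RIGI and SAMD9), and IFIT2 fell by 0.79 ± 0.17 with its call kept in all 6 fits. Leaving out siControl replicate 1 or sip53 replicate 3, 1 interferon gene was called lower, and without siControl replicate 2, 2 were. None was called higher without siControl replicate 1 or 2 or sip53 replicate 1, 1 was without sip53 replicate 2 or 3, and after correction for length and GC content 1 was higher and 2 were lower. Of 28 NF-kB and inflammatory genes 0 were called in either direction, of 24 YAP target genes 2 were lower, and of 52 lysosome and autophagy genes 1 was higher and 2 lower. Without 1 library the YAP list had 0 to 3 lower calls, and the lysosome list 0 to 2 in each direction. The medians of these 5 lists lay between -0.11 and 0.04.

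**Figure D4:**
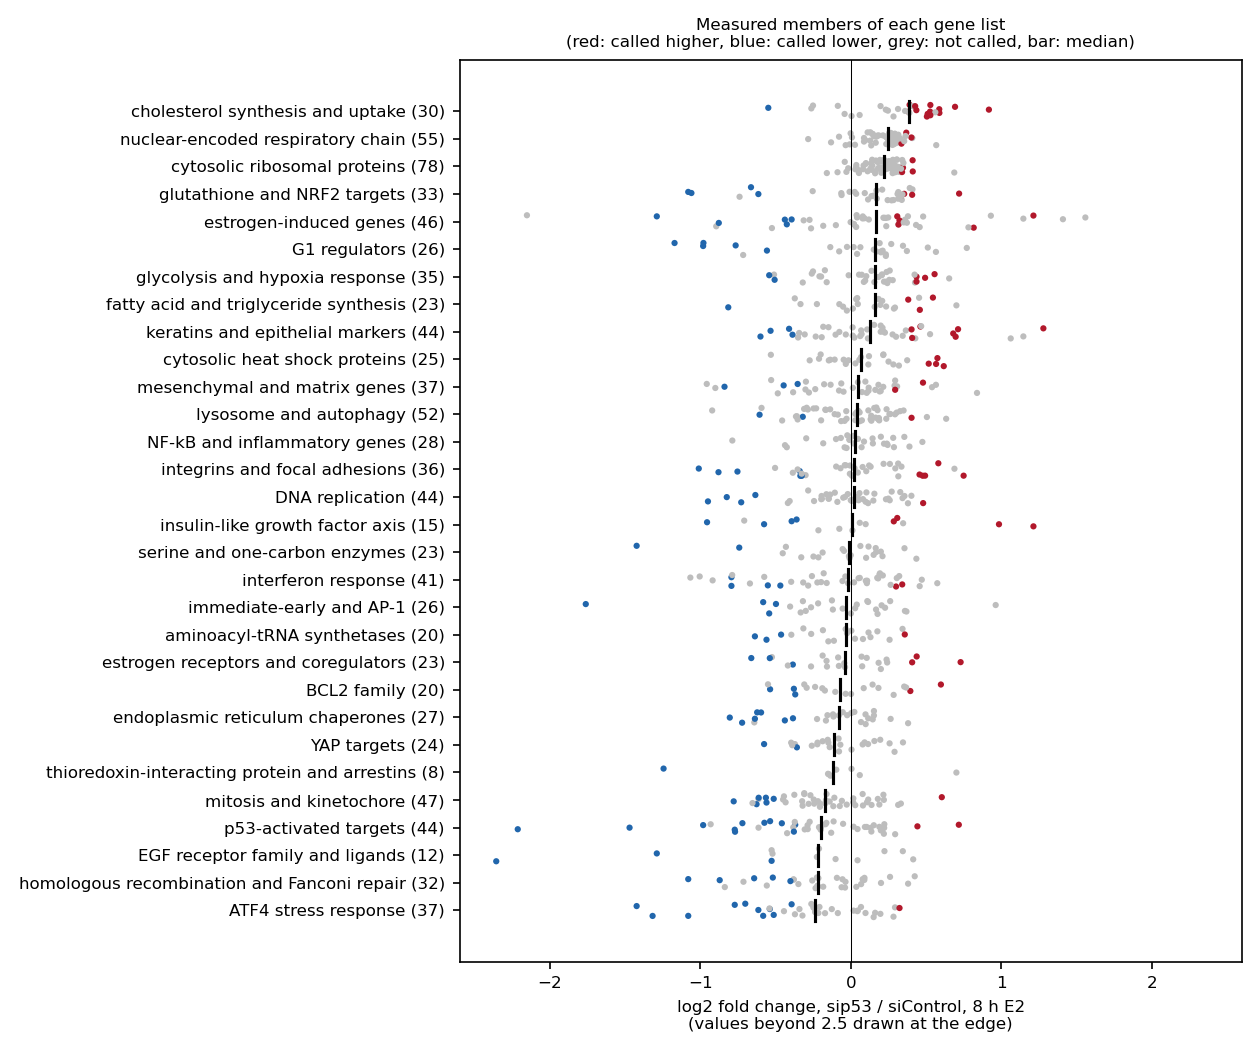
Log2 fold change of sip53 over siControl at 8 h (horizontal axis) for every measured member of 30 gene lists, ordered by the list's median (black bar), with the number measured in brackets. Red points were called higher, blue points lower and grey points not called, and the medians run from -0.24 (ATF4 stress response) to 0.39 (cholesterol).

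The effect of the knockdown at 8 h was set against its effect at 0 h and 2 h, to ask where it differed. The series holds no samples at 2 h or 8 h without E2, so E2 and elapsed time cannot be told apart. Of the 431 genes higher at 8 h, 211 (49%) were also called higher at 0 h, which is 34.6% of the 610 called there (3.98% of those tested, and 9.12% in either direction), and 232 (53.8%) at 2 h, which is 34.3% of the 677 called there (4.42%, and 12.2% in either direction). Of the 941 lower genes 461 (49%) were also called at 0 h, 58.6% of 787 (5.14%), and 663 (70.5%) at 2 h, 55.5% of 1194 (7.79%). None was called in the opposite direction at another time. The median log2 of the genes called higher at 8 h was 0.48 at 8 h, 0.37 at 0 h and 0.38 at 2 h, and that of the lower genes -0.64, -0.49 and -0.61. Since the genes were chosen at 8 h, the larger value there follows in part from the choice. Called at 8 h and at neither other time were 147 higher and 233 lower genes.

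Being called at 1 time does not show a difference between times, so the difference itself was tested. For the knockdown effect at 8 h minus that at 0 h edgeR called 0 of 15318 genes, with 583 (3.81%) at an unadjusted p under 0.05, and for 8 h minus 2 h it called 0, with 508 (3.32%). DESeq2 called 2 genes for 8 h minus 0 h (581 at an unadjusted p under 0.05), among them CTAGE8, a gene of a multi-copy family (adjusted p = 8.8e-06 by DESeq2, 0.999 by edgeR), and 0 for 8 h minus 2 h (502). The median standard error of the difference was 0.2 for genes called at 8 h. Differences well above that size also failed the adjusted test, among them those of TXNIP (-1.06 ± 0.24) and LOXL4 (0.80 ± 0.24). The absence of calls therefore does not show that the effect was the same at each time.

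Some of the genes with a small unadjusted p among these differences are given as values, since none passed edgeR's adjusted test. They were not taken in order of p. TXNIP had a log2 fold change of -0.19 ± 0.17 at 0 h, -0.64 ± 0.17 at 2 h and -1.24 ± 0.17 at 8 h, and its difference between 8 h and 0 h was -1.06 ± 0.24 (edgeR quasi-likelihood, unadjusted p = 0.000186, adjusted p = 0.999). Its level was 20.8 ± 3 CPM in siControl and 18.2 ± 3.45 in sip53 at 0 h, and 48.8 ± 10.3 and 20.6 ± 1.08 at 8 h (SD, n = 3 each). The siControl level at 8 h thus stood above the other 3, and the sip53 level at 8 h lay near both 0 h levels. LOXL4 went from 20.8 ± 4.82 and 22.6 ± 1.64 CPM at 0 h to 45.1 ± 8.89 and 85.5 ± 8.8 at 8 h, a difference in effect of 0.80 ± 0.24 (adjusted p = 0.999). IRF2BP2, a transcriptional corepressor, had an effect of -0.075 at 0 h, -0.14 at 2 h and -0.47 ± 0.08 at 8 h (difference -0.40 ± 0.11, adjusted p = 0.999). Other genes, with a smaller p than LOXL4 and IRF2BP2, had effects at 0 h that were reversed or near 0 at 8 h. SNHG20 went from -0.82 ± 0.21 at 0 h to 0.46 ± 0.20 at 8 h, and NPC1 from 0.57 ± 0.10 to -0.04 ± 0.10. IRF2BP2, SNHG20 and NPC1 were named after their values were seen. Genes with nearly the same effect at each time included TSPAN2 (1.62, 1.499 and 1.39 at 0, 2 and 8 h) and CMTM6 (-1.20, -1.24 and -1.29). The ATF4 list had medians of -0.06 at 0 h, -0.04 at 2 h and -0.24 at 8 h, and the p53 target list -0.10, -0.13 and -0.20, while cholesterol genes had 0.41, 0.32 and 0.39. The differences between these medians were not tested.

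**Figure D5:**
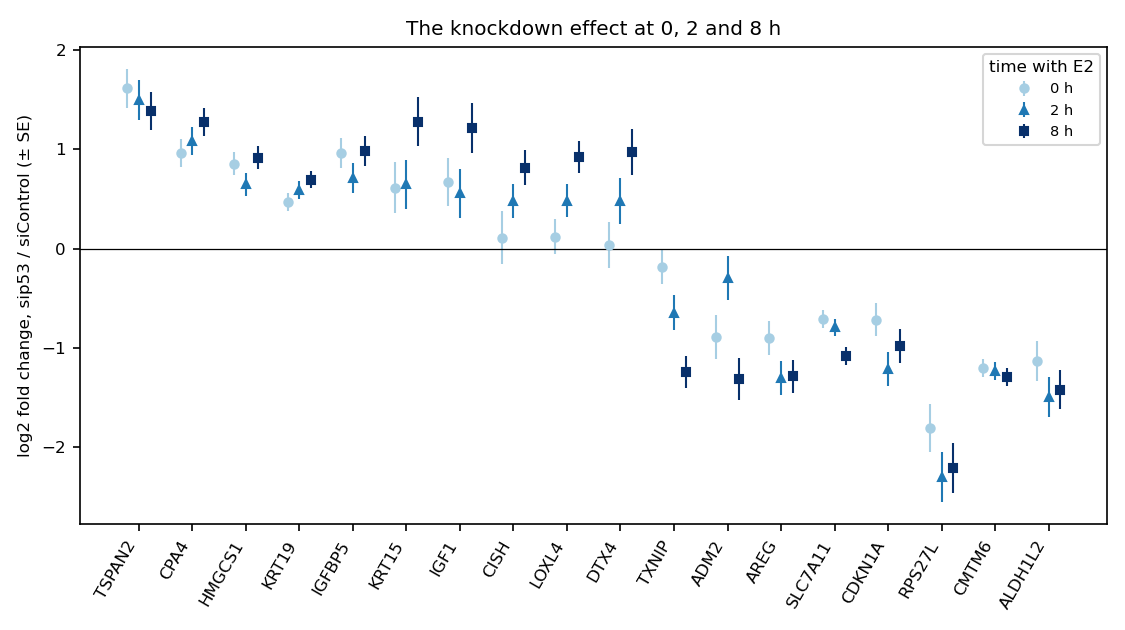
Log2 fold change of sip53 over siControl (vertical axis, bars ± SE) at 0, 2 and 8 h of E2 for 18 named genes. TSPAN2 and CMTM6 have like values at the 3 times, and TXNIP runs from -0.19 at 0 h to -1.24 at 8 h, a difference that did not pass the adjusted test.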

How the data were processed

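QuantSeq 3′ mRNA libraries of 18 PEO1 samples were compared. The expected counts, 1 row per gene named by its transcript IDs, were deposited by the authors as whole numbers, made with RSEM 1.3.3, Bowtie2, cutadapt and MultiQC on hg19, per the submitters' processing notes. The gene annotation behind the counts is not named in these sources. Of 57736 rows, 52673 matched 1 GENCODE gene, 267 were named by majority, 154 had no majority and 4642 had no match. Rows without a gene held 0.635% of counts. Gene names come from a GRCh38 annotation.

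edgeR 4.0.16 (R 4.3.3) fitted all 18 samples with 1 coefficient per group (12 residual degrees of freedom), TMM scaling and a minimum count of 10 in filterByExpr. Two-sided quasi-likelihood p-values were adjusted by Benjamini-Hochberg over all 15318 genes tested (threshold 0.05). CPM values are TMM-normalised, except the cell type marker levels and sums, which are scaled to raw library totals. Library totals ran from 7542457 to 11307199 counts, and their number limits the precision of low genes. The script was run on simulated counts drawn independently for each library. They held neither the uneven replicates nor the base composition trends described above, so that run does not bear on those.

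Named genes were, in each direction, the 15 called protein-coding genes with the largest change (average log2 CPM at or above 3, arms not overlapping), up to 6 called members of each gene list, and a few fixed genes. Genes outside that rule are said to have been named after their values were seen. The members and lists were chosen with earlier results of these data known. The level of the targeted gene and those of a few list members are not reported here. Deviations from the group mean had correlations of 0.052, 0.066 and 0.04 between same-numbered replicates. Between differently numbered ones they ran from -0.105 to 0.052. All were small, so the numbers were not taken as pairs. Alternatives were upper-quartile and RLE scaling, other low-count filters, a replicate block, removal of length and GC trends, DESeq2 1.42.0, a fit to the 8 h samples alone, and leaving out each library. Titles of control libraries write sipNC where the genotype label reads siControl.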

Additional observations from a re-analysis of the deposited data

How the results depend on the processing

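The counts of genes called at 8 h kept their order, more lower than higher, under each of the 8 other settings that used all libraries, with 402 to 693 higher and 733 to 1191 lower. DESeq2 called 693 genes higher, over 1.5 times the 431 of edgeR. Upper-quartile scaling called 617 higher and 838 lower, so that 42.4% of calls were higher in place of 31.4%. Without 1 library at a time the counts ran from 155 to 412 higher and from 244 to 1054 lower. With the replicate number as a block 432 were higher and 987 lower, and 1297 of the 1372 calls were kept. For the knockdown effect at 8 h minus that at 0 h, 29 genes higher and 25 lower were called with no low-count filter and 2 higher by DESeq2. For 8 h minus 2 h, 28 higher and 14 lower were called with no low-count filter. These counts were 0 under the other settings run, the block and each left-out library included. The cause of these differences was not tested. Values were followed for 188 genes, of which 184 were called. Whether called or not, 71 of the 188 kept that status under every setting and 134 under every setting that used all libraries. No called gene reversed. The block ended 6 of the 184 calls and removal of length and GC trends 46. Of 434 list medians under other settings 30 changed sign, all in lists with a median near 0.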
